A study of Mus musculus with 12 samples.

Results

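Reactive astrocyte filament and stress genes were followed in the spinal cord of mice in which Tardbp, the gene of the RNA-binding protein TDP-43, was deleted with a Gfap-driven Cre recombinase. The 10 genes, of 36121 in the deposited expression table, were taken by symbol: Gfap, Vim, Nes, Osmr, Cd44, Emp1, Serpina3n, Aspg, Hspb1 and S100a10. Each symbol had 1 row, and all 10 passed the filter on low values, a mean over the mice of 1 TPM (a level per transcript length, as a share of all transcripts) or more. Mice called cKO carried Gfap-Cre and floxed alleles at both copies of Tardbp (Gfap-Cre; Tardbp-fl/fl). Mice called cHet carried Gfap-Cre and a floxed allele beside a wild-type allele (Gfap-Cre; Tardbp-fl/+). Control mice carried both floxed alleles without Cre (Tardbp-fl/fl), so that floxed Tardbp was common to the 3 groups and Cre to cKO and cHet. All were C57BL6 mice of 3 months, with 4 mice a group, of which 2 were labelled male and 2 female. Cre expression followed the Gfap promoter, and Gfap was itself among the 10 genes measured. The sources used here name no Cre line, floxed exons, cord level or batch.

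When astrocytes respond to injury or disease, they change shape, thicken their cytoskeleton and change the proteins that they secrete and display. Gfap, vimentin and nestin are intermediate filament proteins that assemble in the astrocyte cytoskeleton, and Gfap is the usual marker of reactive astrocytes in spinal cord. Cytokines of the interleukin-6 family act on astrocytes through receptors such as the oncostatin M receptor and the transcription factor STAT3, and small heat shock proteins bind unfolded proteins and filaments. Except for nestin, the genes stand on lists of reactive astrocyte genes in mice, S100a10 and Emp1 on the list called A2 and the others on the list called pan-reactive.

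The cords were whole tissue, so fewer cells of a type and less RNA per cell cannot be told apart. Tardbp averaged 148 ± 5.06 TPM in cKO, 170.4 ± 8.64 TPM in cHet and 171 ± 6.73 TPM in control cords (SD, n = 4 each). Its log2 change was -0.20 against control (limma adjusted p = 0.0113) and -0.20 against cHet (adjusted p = 0.0158, or 0.0522 without cKO replicate 4). Between cHet and control it was -0.00 (adjusted p = 0.984). The 12 libraries summed to 1017860 to 1048380 normalized TPM in cKO, 983452 to 1023990 in cHet and 954895 to 978621 in control cords. All cKO totals were thus above all control totals, so the deposited scale differed with genotype. Setting the totals of all genes equal moved the median log2 change of cKO against control by -0.09. The libraries correlated with each other at r of 0.980 to 0.987 across genes, which are not independent replicates, and held no identical columns. The sex labels were set against 4 Y-linked genes (Ddx3y, Eif2s3y, Kdm5d and Uty), a check added after the data were seen. Their summed level was 93.6 to 120 TPM in 5 libraries labelled male and 2.48 to 4.27 TPM in the 6 labelled female. The library of control replicate 1, labelled male, had 2.49 TPM and so went against its sex label. Whether its genotype label holds was not tested. TPM keeps no read depth, so depth is unknown. Astrocyte markers were present in every cord, with all 10 astrocyte markers above the filter and a summed level of at least 2266 TPM.

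In cKO cords 5 of the 10 genes rose against control: Emp1, Aspg, Serpina3n, Hspb1 and Gfap, by 1.18- to 1.54-fold in mean TPM. Without control replicate 1, whose library went against its sex label, 4 of the 10 were called (Emp1, Serpina3n, Aspg and Hspb1), while Gfap was not (log2 change 0.25, limma adjusted p = 0.0646). With labelled sex as a covariate as well, Gfap was called again (0.27, adjusted p = 0.0167), as were those 4. None of the 10 fell, and all 10 had a positive log2 change as deposited, where 54.2% of all genes did. Their median was 0.32, beside 0.01 over all 15259 genes tested. With equal totals of all genes Nes (-0.024) and S100a10 (-0.012) were negative. Nes was also negative without cKO replicate 3 or control replicate 3. Genes were called at a limma adjusted p under 0.05. At that threshold 5.75% of all genes tested rose and 3.25% fell, 9% in either direction. The split over all genes depended on the scaling between libraries, with 878 higher and 496 lower as deposited, 699 and 575 after median-of-ratios rescaling, 473 and 822 with equal totals outside mitochondrially encoded genes, and 352 and 1666 with equal totals of all genes. In cHet cords none of the 10 genes was called against control, nor was any other gene (0%). Against cHet, 4 of the 10 rose in cKO cords: Aspg, Serpina3n, Emp1 and Gfap, where 2.41% of all genes rose and 2.61% fell, 5.01% in either direction. Both comparisons with cKO use the same 4 cKO libraries.

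**Figure D1:**
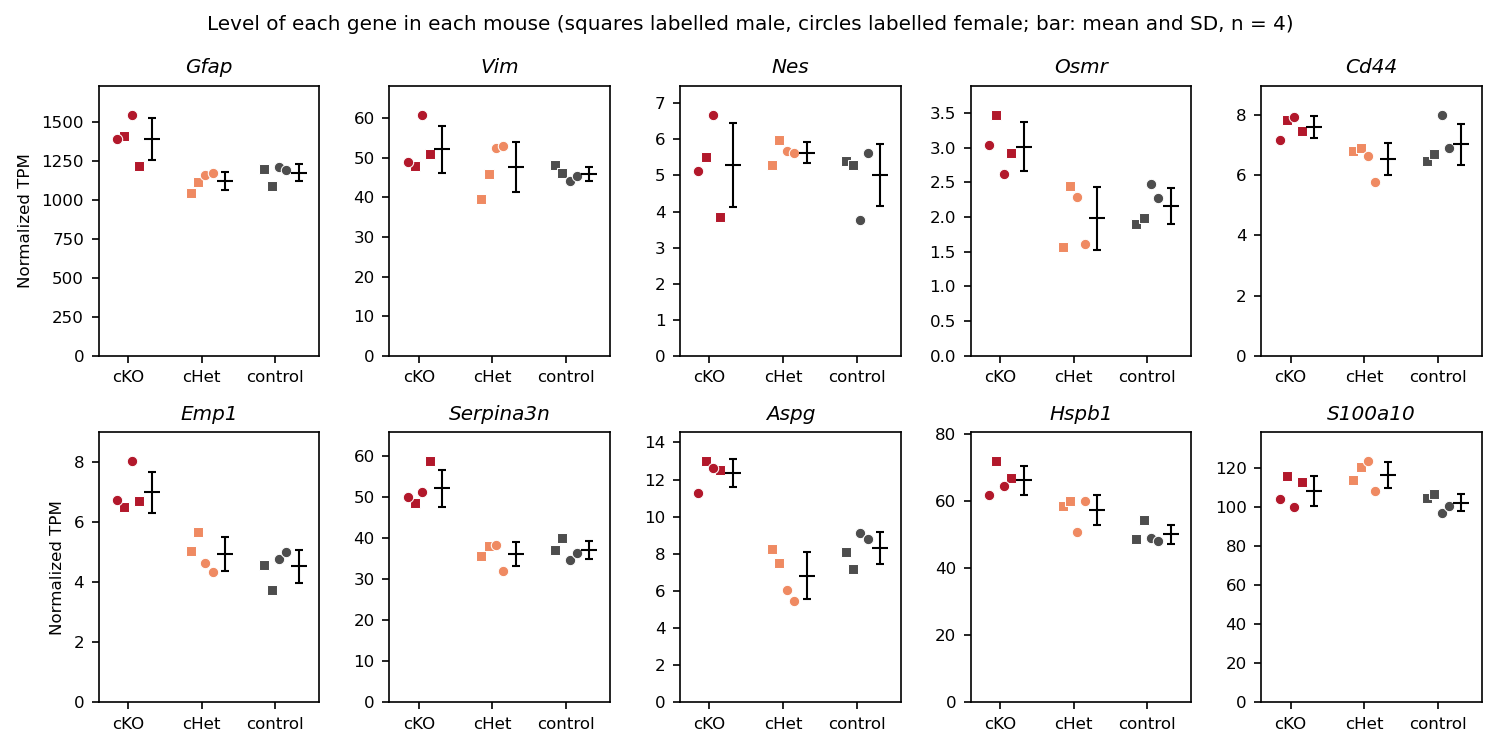
Level of each of the 10 genes in normalized TPM (vertical axis, a scale of its own in each panel) in cKO, cHet and control cords. Points are single mice by labelled sex, and bars are the mean with SD over 4 mice. The 4 cKO points lie above all control points for Gfap, Osmr, Emp1, Serpina3n, Aspg and Hspb1, and cKO and control overlap for the other 4 genes.

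Gfap, the main filament protein of mature astrocytes (chromosome 11, 102887336 to 102900912, minus strand, GRCm38), stood at 1391, 1411, 1546 and 1216 TPM in cKO cords. Levels were 1046, 1116, 1160.5 and 1171 TPM in cHet cords and 1199, 1092, 1212 and 1195 TPM in control cords. Every cKO cord was above every cHet and control cord, but by little, since cKO replicate 4 at 1216 TPM lay next to control replicate 3 at 1212 TPM. The means were 1391 ± 135 TPM in cKO, 1123 ± 56.8 TPM in cHet and 1175 ± 55.5 TPM in control cords (SD, n = 4). Gfap rose in cKO cords, with a log2 change over control of 0.24 ± 0.06 (SE, limma adjusted p = 0.0386) and over cHet of 0.30 ± 0.06 (adjusted p = 0.0171). The change between cHet and control was -0.06 (95% interval -0.21 to 0.08, adjusted p = 0.764). Both cHet and cKO mice carried Gfap-Cre. The call against control was close to the threshold and was lost in 14 of 25 alternatives, among them each of the 4 rescalings and the fits without cKO replicate 1, 2 or 3 or without any 1 control mouse, with an adjusted p of up to 0.162. The log2 change stayed above 0 in all 25. Against cHet the call was lost in 2 of 25, with an adjusted p of 0.0522 without cKO replicate 2.

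Vim encodes vimentin, which copolymerizes with Gfap in astrocytes and is also made by endothelial cells, fibroblasts and microglia (chromosome 2, 13573927 to 13582826, plus strand). Its levels were 48.8, 47.8, 60.7 and 50.9 TPM in cKO cords, 39.6, 45.7, 52.5 and 52.8 TPM in cHet cords and 48.2, 46.0, 44.0 and 45.4 TPM in control cords. The groups overlapped, and the highest value was that of cKO replicate 3. Vim did not pass the test against control (log2 change 0.17 ± 0.09, SE, 95% interval -0.03 to 0.38, limma adjusted p = 0.303) or against cHet (0.13, adjusted p = 0.530).

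Nes encodes nestin, a filament protein of neural progenitors and of some reactive astrocytes and vessel cells (chromosome 3, 87971078 to 87980451, plus strand). It was at 5.12, 5.51, 6.68 and 3.85 TPM in cKO cords, 5.28, 5.97, 5.67 and 5.61 TPM in cHet cords and 5.39, 5.29, 3.76 and 5.62 TPM in control cords. Both the highest value, in cKO replicate 3, and the second lowest, in cKO replicate 4, belonged to the same genotype. The log2 change was 0.06 ± 0.15 (SE) against control (95% interval -0.26 to 0.38, limma adjusted p = 0.861) and -0.11 ± 0.15 against cHet (adjusted p = 0.784). The first of these was -0.02 with equal totals of all genes, so that no direction can be given.

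Ratios within a library do not depend on the scaling between libraries. Vim stood at 3.75% ± 0.371 of the Gfap level in cKO, 4.23% ± 0.357 in cHet and 3.91% ± 0.255 in control cords (SD, n = 4, both in TPM and so per length). No pair of groups differed in this ratio by a two-sided exact permutation test, with p = 0.486 for cKO against control and 0.143 for cKO against cHet. Nes stood at 0.377% ± 0.0482 of the Gfap level in cKO, 0.502% ± 0.0246 in cHet and 0.429% ± 0.0802 in control cords. The 4 cKO ratios lay below the 4 cHet ratios (log2 difference -0.42, exact permutation p = 0.0286, the smallest that 4 against 4 allows), but over the 6 ratio tests the adjusted p was 0.171. Against control the Nes ratio of cKO cords did not differ (exact permutation p = 0.343).

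Osmr, the receptor subunit for oncostatin M (chromosome 15, 6813577 to 6874969, minus strand), was the least abundant of the 10. It was measured at 3.04, 3.47, 2.62 and 2.93 TPM in cKO cords, 1.56, 2.45, 2.29 and 1.61 TPM in cHet cords and 1.91, 1.99, 2.47 and 2.28 TPM in control cords. All 4 cKO values were above all others. Osmr was 1.40 times the control mean in cKO cords (log2 change 0.40 ± 0.14, SE, exact permutation p = 0.0286), but the limma adjusted p was 0.0993. The permutation p is unadjusted, the smallest that 4 against 4 allows, and is reached by any gene whose groups do not overlap. Against cHet the log2 change was 0.52 ± 0.14 with an adjusted p of 0.0560, and it was called in 3 of 24 alternatives, with equal totals outside mitochondrially encoded genes, without the limma trend and without cHet replicate 2. In the authors' deposited table Osmr had a q of 0.0323 by the likelihood ratio test and 0.0169 by the Wald test for cKO against control. The share of the estimation of abundance in its variance within groups, computed from that table, was 99.4%, against 0.362% for Gfap. For cKO against cHet it was 48.7% (Gfap 0.474%), and for cHet against control 53.9% (Gfap 1.45%).

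Cd44, a surface receptor for hyaluronan and osteopontin found on reactive astrocytes and on immune cells (chromosome 2, 102811141 to 102901665, minus strand), was at 7.15, 7.83, 7.94 and 7.45 TPM in cKO cords. It was at 6.80, 6.91, 6.65 and 5.77 TPM in cHet cords and at 6.48, 6.70, 7.996 and 6.90 TPM in control cords. The highest of the 12 values was that of control replicate 3, so cKO overlapped control, whereas all cKO cords were above all cHet cords. Neither comparison passed the test, the log2 change being 0.11 ± 0.08 (SE) over control (limma adjusted p = 0.457) and 0.21 ± 0.08 over cHet (adjusted p = 0.181).

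Emp1 showed the largest change of the 10 against control. It encodes a membrane protein with 4 membrane-spanning segments, related to the myelin protein Pmp22 (chromosome 6, 135362545 to 135383173, plus strand). Levels were 6.71, 6.50, 8.003 and 6.69 TPM in cKO cords, 5.02, 5.65, 4.64 and 4.34 TPM in cHet cords and 4.58, 3.74, 4.75 and 4.99 TPM in control cords. All cKO cords were above all others. Emp1 rose to 1.54 times the control mean (log2 change 0.58 ± 0.10, SE, limma adjusted p = 0.00504). Against cHet it rose by a log2 change of 0.47 ± 0.10 (adjusted p = 0.0220), a call lost without cKO replicate 3, cHet replicate 3 or cHet replicate 4 (adjusted p up to 0.0637). It did not differ between cHet and control beyond the spread of the mice (0.11 ± 0.10, adjusted p = 0.737).

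The promoter windows of the genes that rose were read to show what letters stand before their starts, as a description. The windows are the 250 bases before the gene start in RefSeq (GRCm38.p6), of which 9 of the 10 genes had at least 1. RefSeq starts can differ from the gene coordinates given here, which are from GENCODE. The windows of Gfap, Vim, Osmr and Emp1 lie inside those coordinates, not before them. Both strands were searched for TTCNNNGAA (STAT proteins), TGANTCA (AP-1), GAANNTTC and TTCNNGAA (pairs of heat shock units) and TATAAA. Emp1 and Hspb1 are printed because they were the genes that rose and had a match. The first of the 2 Emp1 windows, chr6:135362681-135362930 on the plus strand, has the matches in capitals. They are TGAGTCA from base -145, TTCTTTGAA from base -120, TGATTCA from base -25 and TTCATAGAA from base -22, counted back from the RefSeq start. The last pair overlap.
Emp1: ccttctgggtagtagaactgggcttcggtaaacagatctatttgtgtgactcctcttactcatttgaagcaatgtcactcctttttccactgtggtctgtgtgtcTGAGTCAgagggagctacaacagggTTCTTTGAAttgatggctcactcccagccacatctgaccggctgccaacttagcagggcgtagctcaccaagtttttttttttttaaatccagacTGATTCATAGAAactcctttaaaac
TTCNNNGAA occurred in 7.02% and TGANTCA in 6.75% of the 32851 windows of that length. The other window of Emp1 and those of Gfap, Serpina3n and Aspg held none of the letters searched, and neither a match nor its absence shows what binds there.

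Serpina3n and Aspg encode a secreted and a metabolic protein of reactive astrocytes. Their cKO levels stood apart from both other genotypes, as did those of Gfap, Osmr, Emp1 and Hspb1. Serpina3n, a secreted inhibitor of serine proteases (chromosome 12, 104406729 to 104414329, plus strand), was at 50.03, 48.5, 51.2 and 58.6 TPM in cKO cords. It was at 35.7, 38.1, 38.3 and 31.99 TPM in cHet cords and 37.1, 40.05, 34.7 and 36.3 TPM in control cords. The highest value outside cKO, 40.05 TPM in a control cord, was below the lowest cKO value of 48.5 TPM. Serpina3n rose to 1.41 times the control mean (log2 change 0.48 ± 0.07, SE, limma adjusted p = 0.00141) and by a log2 change of 0.53 ± 0.07 against cHet (adjusted p = 0.00115). Between cHet and control the change was -0.04 ± 0.07 (adjusted p = 0.870). The order of Serpina3n and Vim changed with genotype, Serpina3n being the higher in TPM in 3 of 4 cKO, 0 of 4 cHet and 0 of 4 control cords. Serpina3n belongs to a cluster of related genes on chromosome 12, between which a transcript counter can split reads. The 10 other cluster genes that were listed summed to 2.59 to 4.95 TPM in cKO, 3.06 to 3.86 TPM in cHet and 2.68 to 3.54 TPM in control cords. These sums were small beside Serpina3n. Serpina3g, the 1 of the 10 above the filter, had a log2 change of 0.01 ± 0.22 for cKO against control (limma adjusted p = 0.986), of either sign with the scaling.

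Aspg, which encodes an asparaginase (chromosome 12, 112106679 to 112127559, plus strand), was at 11.3, 12.98, 12.6 and 12.5 TPM in cKO cords. It was at 8.24, 7.49, 6.07 and 5.49 TPM in cHet cords and 8.13, 7.18, 9.13 and 8.81 TPM in control cords. The cKO cords were above all others, and 2 cHet cords were below every control cord. Aspg rose to 1.49 times the control mean (log2 change 0.55 ± 0.11, SE, limma adjusted p = 0.0119) and to 1.81 times the cHet mean (0.83 ± 0.11, adjusted p = 0.00129), the largest change of the 10 in that comparison. Between cHet and control its log2 change was -0.28 ± 0.11, with an unadjusted p of 0.0318 and a limma adjusted p of 0.393, so the lower cHet mean did not pass. The share of estimation in its variance within groups, computed from the authors' deposited table for cKO against control, was 100%. It was 100% for cKO against cHet and 82.7% for cHet against control. A share of 100% is reached whenever the remaining variance estimate is not positive, and does not show that mice were alike.

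Hspb1 encodes a small heat shock protein, a chaperone that also binds filaments (chromosome 5, 135887919 to 135889563, plus strand). It was at 61.8, 71.9, 64.5 and 66.8 TPM in cKO cords, 58.7, 60.1, 50.8 and 60.2 TPM in cHet cords and 48.8, 54.3, 49.1 and 48.2 TPM in control cords. The cKO cords were above all others, and the means ran 66.2 ± 4.29 TPM in cKO, 57.5 ± 4.46 TPM in cHet and 50.1 ± 2.82 TPM in control cords (SD, n = 4). Hspb1 rose over control, with a log2 change of 0.40 ± 0.06 (SE, limma adjusted p = 0.00244). Its cHet mean lay between the others, but neither step alone passed, with 0.19 ± 0.06 for cHet against control (unadjusted p = 0.0100, limma adjusted p = 0.2999) and 0.20 ± 0.06 for cKO against cHet (adjusted p = 0.0965). In the authors' deposited table for cKO against cHet, Hspb1 had a q of 0.0733 by the likelihood ratio test and 0.0291 by the Wald test. The promoter window of Hspb1, chr5:135887669-135887918 on the plus strand, has 2 matches of GAANNTTC in capitals, GAAGTTTC from base -117 and GAACCTTC from base -97, the letters of heat shock elements.
Hspb1: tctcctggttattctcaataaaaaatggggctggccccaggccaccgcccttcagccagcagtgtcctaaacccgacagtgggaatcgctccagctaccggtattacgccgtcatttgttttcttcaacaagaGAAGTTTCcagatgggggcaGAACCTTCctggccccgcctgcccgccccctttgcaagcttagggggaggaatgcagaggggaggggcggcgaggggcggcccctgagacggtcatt
GAANNTTC occurred in 6.69% of all windows and in none of the other windows of the genes. TATAAA was found in that of Vim (12.4% of all windows).

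S100a10 encodes p11, the partner of annexin A2 at the plasma membrane (chromosome 3, 93555080 to 93564643, plus strand). Like Nes, it had its highest mean in cHet. It was at 104, 116, 100.03 and 113 TPM in cKO cords, 114, 121, 124 and 108 TPM in cHet cords and 105, 107, 97.1 and 100.5 TPM in control cords. All 4 cHet cords were above all 4 control cords, while cKO overlapped both. The log2 change for cHet against control was 0.19 ± 0.06 (SE, exact permutation p = 0.0286, unadjusted and the smallest that 4 against 4 allows), but the limma adjusted p was 0.265. For cKO against control it was 0.08 ± 0.06 (adjusted p = 0.437), and -0.01 with equal totals of all genes.

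**Figure D2:**
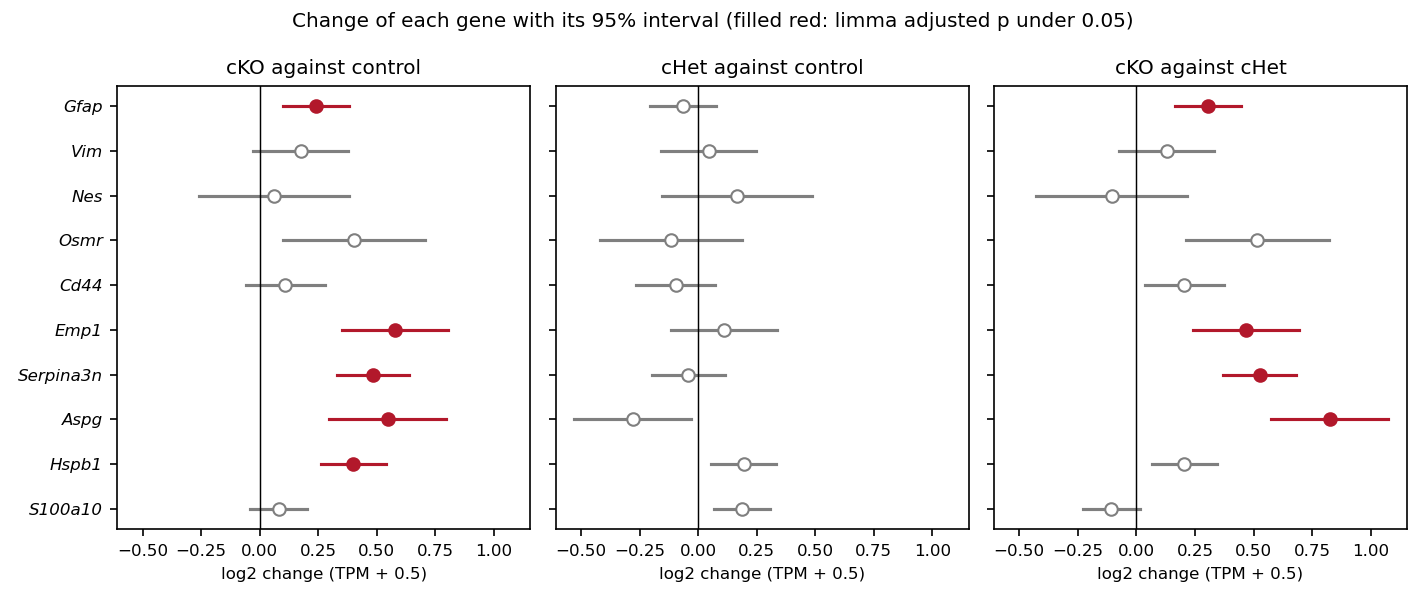
Log2 change with its 95% interval from limma for each of the 10 genes, for cKO against control, cHet against control and cKO against cHet, on the log2(TPM + 0.5) scale. Filled points are genes with an adjusted p under 0.05, 5 in the first comparison, 0 in the second and 4 in the third.

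Of the 10 genes 6 had cKO cords that did not overlap control cords, all 6 higher, where 10.5% of all genes tested were non-overlapping and higher and 6.59% lower, 17.1% in either direction. Against cHet, 7 genes were non-overlapping and higher in cKO (background 6.14% higher and 5.33% lower, 11.5% in either direction), Gfap, Osmr, Cd44, Emp1, Serpina3n, Aspg and Hspb1. For cHet against control the count was 1, S100a10 (background 4.12% higher and 2.1% lower, 6.23% in either direction). At an unadjusted p under 0.05, limma gave 3 of the 10 genes for cHet against control, beside 1724 of all 15259 genes tested. Of these 3, Aspg was lower, and Hspb1 and S100a10 were higher. The authors' deposited tables gave 0 of the 10 genes at q under 0.05 for cHet against control by both of their tests, with 0 genes in all by the likelihood ratio test and 28 by the Wald test. For cKO against control both tests in the authors' deposited table called 6 of the 10, Osmr beside the 5 above, where they called 9.42% and 10.2% of all genes. In the authors' deposited table for cKO against cHet, 4 of the 10 were called by the likelihood ratio test and 6 by the Wald test, where 3.78% and 4.94% of all genes were. Emp1, Serpina3n, Aspg and Hspb1 against control, and Serpina3n and Aspg against cHet, were called in all 25 alternatives.

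**Figure D3:**
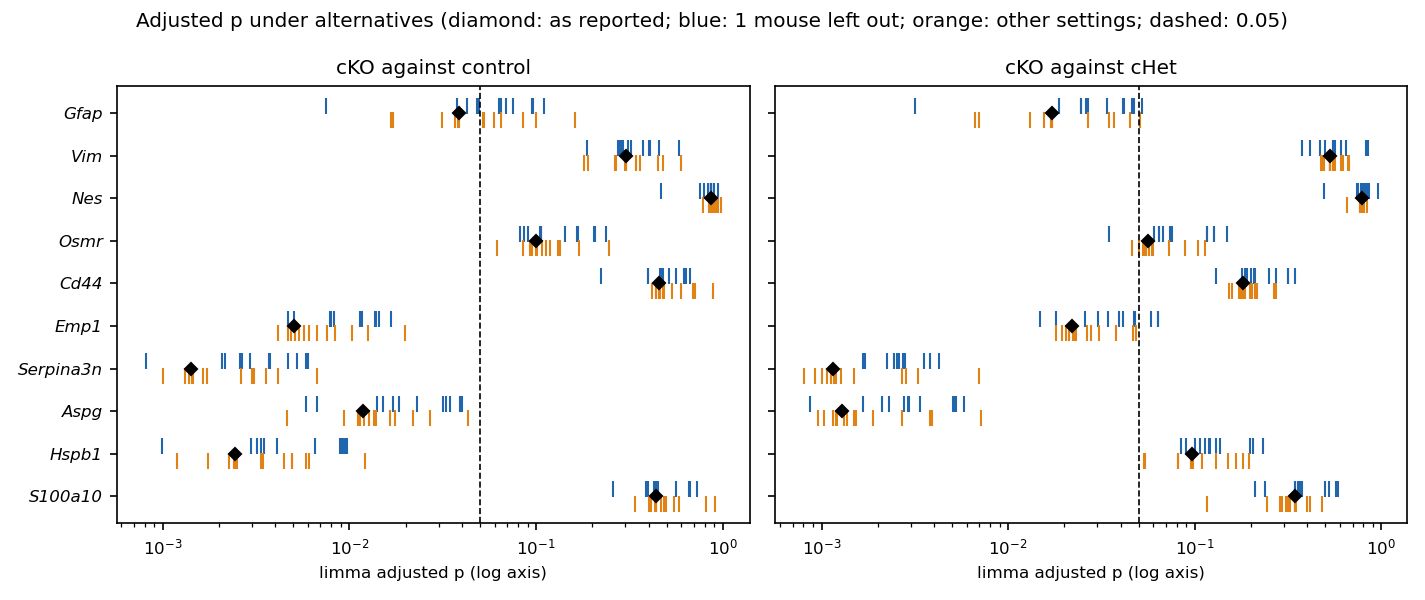
Limma adjusted p (log axis) of each gene under the 25 alternatives to the processing, or 24 for Osmr, for both comparisons with cKO. Diamonds are the values as reported, blue ticks leave out 1 mouse, orange ticks are other settings and the dashed line is the threshold of 0.05. Gfap against control has values on both sides of the threshold, between 0.00746 and 0.162, while Serpina3n and Aspg stay under it in both comparisons.

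Ordered by TPM, a level per transcript length, Gfap led in every group, followed by S100a10 and Hspb1, with no overlap between the ranges of these 3 genes. Gfap had a higher mean than 99.6% of the genes tested, S100a10 than 90.9%, Hspb1 than 81.1%, Vim than 77.4% and Serpina3n than 74.1%, and Osmr than 11.8%. In cKO cords the ranges of neighbours overlapped for Serpina3n and Vim, for Cd44 and Emp1, and for Emp1 and Nes, and for no other neighbours in the order. In cHet cords they overlapped for Hspb1 and Vim and for each neighbouring pair from Aspg through Cd44 and Nes to Emp1, and in control cords for Aspg and Cd44 and for Nes and Emp1. Nes stood above Emp1 in all 4 cHet and in 3 of 4 control cords, and Emp1 stood above Nes in all 4 cKO cords.

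The rises did not gather in a single mouse. Of the 12 mice, cKO replicate 3 was the highest for Gfap, Vim, Nes and Emp1, cKO replicate 2 for Osmr, Aspg and Hspb1, and cKO replicate 4 for Serpina3n. A cKO cord was thus the highest for 8 of the 10 genes, and the other two tops were cHet replicate 3 for S100a10 and control replicate 3 for Cd44. The lowest values were in cHet replicate 1 for Gfap, Vim and Osmr, in cHet replicate 4 for Cd44, Serpina3n and Aspg, and in control mice for the other 4 genes (replicate 2 for Emp1, replicate 3 for Nes and S100a10, replicate 4 for Hspb1). Within groups Gfap and Vim spread more than most genes of their level, with a residual SD above that of 89.9% and 90.4% of the 763 genes in the same level bin, and Cd44 less than most, above 30.3%.

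Labelled sex was compared with genotype in the model, and the library of control replicate 1 went against its label, so each value is given with and without it. None of the 10 genes was called between mice labelled male and female, with 0 of all genes (0%) over 12 mice and 10 (0.0655%) without control replicate 1. With that label kept, the fit over 12 mice called no Y-linked gene either, so its lack of calls says little about the 10 genes. Over the 12 mice, 3 of the 10 genes and 902 of all 15259 genes tested had an unadjusted p under 0.05. Gfap averaged 1176 TPM in 5 males and 1279 TPM in 6 females without that mouse. Its log2 difference, male minus female, was -0.14 ± 0.04 (SE, limma adjusted p = 0.822), and -0.11 ± 0.04 (adjusted p = 0.797) over the 12 mice. Hspb1 averaged 62.4 TPM in males and 55.8 TPM in females without that mouse, with a log2 difference of 0.13 ± 0.04 (limma adjusted p = 0.822), and of 0.11 ± 0.04 (adjusted p = 0.834) over the 12 mice. S100a10 averaged 114 TPM in males and 105.6 TPM in females without that mouse, with a log2 difference of 0.10 ± 0.04 (limma adjusted p = 0.868), and of 0.09 ± 0.04 (adjusted p = 0.820) over the 12 mice. The difference between males and females in the cKO effect was called for none of the 10 genes either way. Of all genes it was called for 1 (0.00655%) over 12 mice and for 0 (0%) without control replicate 1, which leaves 1 control male. Its smallest unadjusted p among the 10 genes was that of Aspg, 0.0315 without that mouse (limma adjusted p = 0.9998) and 0.0513 over the 12 mice (adjusted p = 0.9996).

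Related genes were read from lists, as counts called. Over all genes tested, 9% were called in either direction for cKO against control and 5.01% for cKO against cHet. No list was tested as a set, so single calls in a list are no result about its family. The other pan-reactive genes held 0 called of 5 tested for cKO against control, with a median log2 change of 0.01, and the other A2 genes 0 of 7 (0.05). Of these, Cxcl10, a chemokine, had a log2 change of 0.93 ± 0.45 (SE, limma adjusted p = 0.244), and Tm4sf1, a membrane protein with 4 membrane-spanning segments, one of 0.37 ± 0.11 (adjusted p = 0.0615). Lcn2, a lipocalin often raised in reactive astrocytes, was at 2.58 ± 1.93 TPM in cKO and 2.67 ± 1.46 TPM in control cords (SD, n = 4), a value picked after it was seen. No gene of either list was called against cHet, where the smallest p of each list was that of Cxcl10 (0.84 ± 0.45, adjusted p = 0.360) and of Stat3 (0.14 ± 0.06, adjusted p = 0.207).

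Among the 11 other intermediate filament, lamin and plakin genes tested, 1 rose and 1 fell. Synm, whose product synemin joins other filament proteins into their network, fell to 29.2 ± 1.31 TPM in cKO, against 33.3 ± 1.95 TPM in control cords (SD, n = 4, log2 change -0.19, limma adjusted p = 0.0353). It fell against cHet as well (-0.24, adjusted p = 0.0148, or 0.0509 without cKO replicate 4). Ina, the neuronal filament protein alpha-internexin, rose by a log2 change of 0.13 (adjusted p = 0.0352), a call lost under each of the 4 rescalings. Against control the Synm call was lost in 9 of 25 alternatives, 6 of which left out 1 mouse (cKO replicate 1, 2 or 4, or control replicate 1, 3 or 4), with an adjusted p of up to 0.102. Without cKO replicate 2, 3 or 4 or control replicate 2, 3 or 4 the Ina call was lost.

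Of 12 tested genes of interleukin-6 family signalling, 2 rose in cKO against control and none fell. Cntf, a cytokine made by astrocytes and Schwann cells, rose to 13.7 ± 0.999 TPM in cKO, against 10.2 ± 0.874 TPM in control cords (log2 change 0.41 ± 0.07, SE, limma adjusted p = 0.00575), and by 0.41 against cHet (adjusted p = 0.00736). Cntfr, its receptor subunit, rose by a log2 change of 0.27 ± 0.06 against control (adjusted p = 0.0137), a call lost with equal totals of all genes (0.0742). The ligands Osm, Lif and Il6 were below the filter. The CD44 list, with 9 genes tested, had none called against control, where Adam10, a protease that can cleave CD44, had a log2 change of -0.14 (limma adjusted p = 0.0628). Against cHet 1 was called, Adam10 (-0.19, adjusted p = 0.0232), but not in 7 of 25 alternatives, among them those without cKO replicate 1, 2 or 4 or cHet replicate 3 or 4.

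Small heat shock proteins and their partners had 1 rise among 7 tested against control. Hspb8, a partner of the chaperone Bag3, rose by a log2 change of 0.17 ± 0.04 (SE, limma adjusted p = 0.0253), a call lost with both rescalings to equal totals and without cKO replicate 2 or 3 or control replicate 1 or 4. None was called against cHet, where Cryab, which encodes alpha B-crystallin, had a log2 change of -0.31 ± 0.10 (adjusted p = 0.102). Of 9 S100 and annexin A2 genes, S100a1 and S100a13, which encode small calcium-binding proteins, rose against both. S100a1 was at 386 ± 19.1 TPM in cKO, 300.4 ± 17.5 TPM in cHet and 283 ± 19.5 TPM in control cords (SD, n = 4, log2 change 0.45 against control, limma adjusted p = 0.000448, and 0.36 against cHet, 0.00228). S100a13 was at 88.1 ± 4.90 TPM in cKO, 70.4 ± 3.39 TPM in cHet and 65.2 ± 3.17 TPM in control cords (0.43, adjusted p = 0.000323, and 0.32, 0.00266). The 2 genes are neighbours on chromosome 3, and the sources used here do not say whether strand was used in the counting.

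In the family of Emp1, 1 of 3 relatives changed. Pmp22, a myelin protein of peripheral nerve, fell to 115 ± 2.30 TPM in cKO, against 128 ± 4.98 TPM in control cords (SD, n = 4, log2 change -0.15, limma adjusted p = 0.0199), and fell against cHet (-0.17, adjusted p = 0.0120). The call against control was lost when libraries were scaled to reference genes and without cKO replicate 2 or 4 or control replicate 1 or 4. Asparagine metabolism beside Aspg had 0 of 3 called in each comparison, with Nars at a log2 change of 0.05 against control (adjusted p = 0.468) and Asrgl1 at 0.05 against cHet (adjusted p = 0.585).

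For cHet against control no list held a called gene. The smallest p in each belonged to S1pr3 (log2 change -0.13), Clcf1 (-0.27), Plec (-0.17), Cntfr (0.13), Nf2 (0.11), Dnajb1 (0.21), S100b (0.13), Serpina3g (0.11), Pmp22 (0.02) and Asrgl1 (-0.09). Their limma adjusted p values lay between 0.227, for Dnajb1, and 0.892, for Serpina3g.

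**Figure D4:**
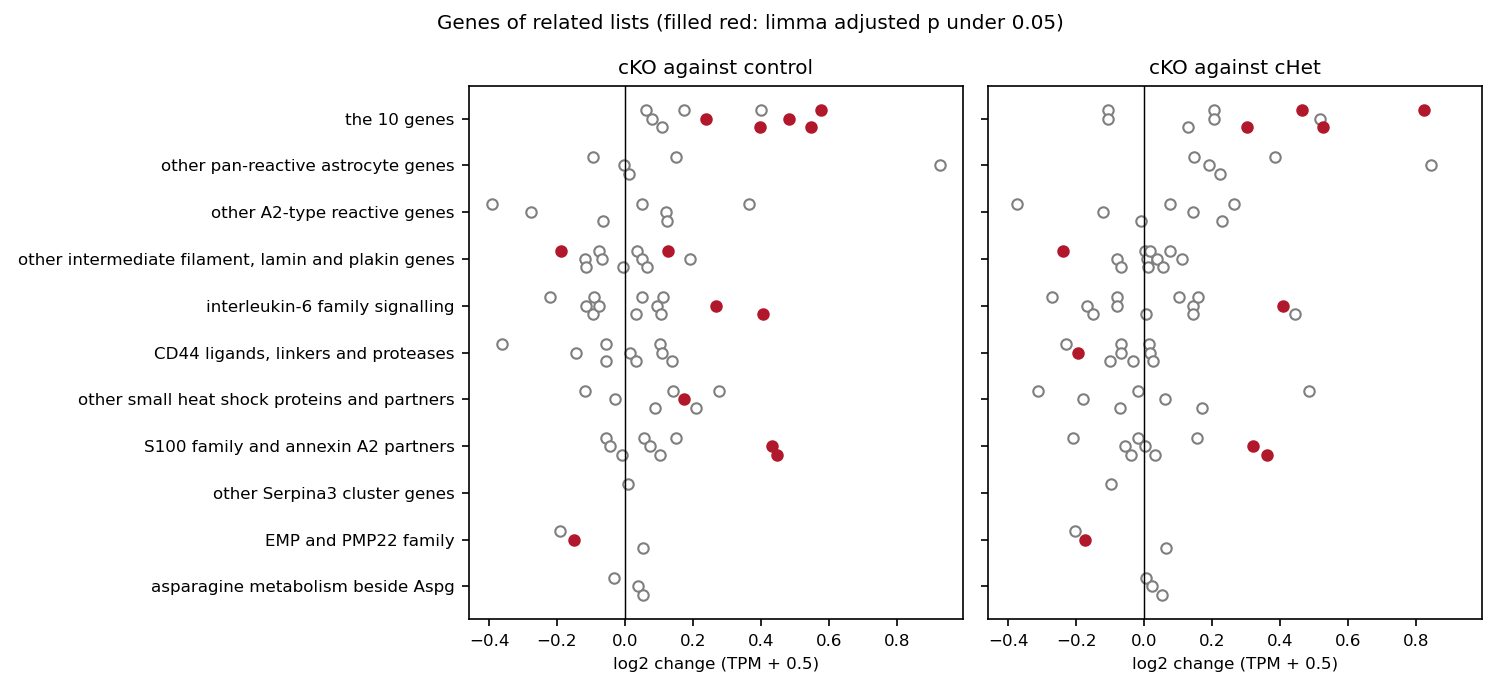
Log2 change from limma of each tested gene of the related lists (rows, with the 10 genes on top) for cKO against control and cKO against cHet; filled points have an adjusted p under 0.05. In the lists most points are open and lie near 0, the open point farthest to the right is Cxcl10, and the filled points to the right are led by S100a1, S100a13 and Cntf.

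Across the 12 mice, genes with a mean level of 5 TPM or more were ranked by Pearson's r with Gfap on the log2(TPM + 0.5) scale, as a description. The mice fall in 3 genotypes and the libraries share a scaling, so no p is given. Of 11844 genes, Ttc39c (r = 0.958), Lpl (0.937), Chpt1 (0.919) and Bcs1l (0.907) were among the 5 most like Gfap. Without the 2 mice farthest from the median of Gfap, r was 0.920 for Ttc39c, 0.921 for Lpl, 0.842 for Chpt1 and 0.801 for Bcs1l, and Spearman's rho of these 4 genes over 12 mice lay between 0.797 and 0.881. Lpl encodes lipoprotein lipase and Chpt1 an enzyme of phosphatidylcholine synthesis. Of the other 9 genes described here, Emp1 was the nearest to Gfap (r = 0.784, rank 125), followed by Aspg (0.722, rank 290), Osmr (0.699, below the level for ranking) and Vim (0.656, rank 497). S100a10 had a negative r (-0.35).

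Markers of cell types moved with genotype on the deposited scale, where 5.75% of all genes tested rose and 3.25% fell for cKO against control. The marker calls were not followed under the other scalings. Summed microglia markers were at 216 to 231 TPM in cKO, 179 to 196 TPM in cHet and 178 to 187 TPM in control cords, and 4 of 6 rose against control. Oligodendrocyte markers summed to 6754 to 7681 TPM in cKO, 8241 to 10428 TPM in cHet and 8627 to 9093 TPM in control cords, and 4 of 5 fell against control. Astrocyte markers summed to 2622 to 2791 TPM in cKO, 2333 to 2469 TPM in cHet and 2266 to 2399 TPM in control cords, but their 10 genes did not move as one. Aldoc alone averaged 1560 TPM in cKO and 1229 TPM in control cords. The glutamate transporter gene Slc1a2 (log2 change 0.30) and Aldoc (0.34) rose against control, while Slc1a3 (-0.59) and the gap junction gene Gja1 (-0.26) fell (limma adjusted p = 0.0330 or less for each). None of the endothelial (6), ependymal (6) or mural (5) markers, of cells that can also express Vim, Nes or Emp1, was called against control. Of the meningeal fibroblast markers 1 of 5 tested, Dcn, rose, as did 1 of 5 neuron markers, Rbfox3. Of the red cell (3), leukocyte (2) and Schwann cell (2) markers tested none was called, and the T cell genes Cd3e and Cd8a were below the filter. Mitochondrially encoded genes held 19.0% to 20.4% of the signal in cKO, 16.4% to 18.4% in cHet and 16.04% to 18.3% in control cords. The part of these shifts in the changes of the 10 genes was not tested.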

How the data were processed

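RNA was measured in 12 spinal cords, flash frozen and extracted with Trizol, with libraries from an Illumina TruSeq kit, per the labels' protocols. The deposited signal is the authors' normalized TPM per gene, made with kallisto 0.44.0 and sleuth 0.30.0 on GRCm38, per the submitters' processing notes. The sources used here name no annotation release and no filter. The authors' deposited tables also hold p-values and q-values of a likelihood ratio and a Wald test for each pair of groups. They hold other columns of effect and variance on a log base that is not stated, from which only a share of variance due to estimation was computed. The share was the estimation variance over its sum with the remaining variance, negative values of which counted as none.

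From these values, log2(TPM + 0.5) was computed for the 15259 genes with a mean level of 1 TPM or more and fitted with limma 3.58.1 in R 4.3.3 (eBayes with trend, two-sided, all 12 mice, no covariate). P-values were adjusted by Benjamini-Hochberg over all genes of a comparison, and genes were called at an adjusted p under 0.05. A log2 change on this scale understates the change of low genes. Each SD is over 4 mice of TPM and each SE is that of limma. Exact permutation tests were two-sided over 70 assignments. The limma step was tested on simulated data.

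The mouse is the replicate, since each label names 1 mouse, and replicate numbers were given in accession order. The 10 genes, the related lists and the marker lists were chosen with earlier results of these data known. From each list the text names up to 2 called genes by adjusted p, or the gene with the smallest p where none was called; others are named where a sentence says so or as cell type markers. Some genes that these rules select are counted but not reported here. Coordinates are from GENCODE M21 on GRCm38, and promoter windows from RefSeq on GRCm38.p6. Alternatives were 4 rescalings, other pseudocounts and filters, labelled sex as a covariate, other limma settings and leaving out each mouse.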

Additional observations from a re-analysis of the deposited data

Results flagged for a closer look

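Within groups of 4 mice, a single value stood apart from the other 3 in 4 of 36 sets of values checked, where chance gives about 1 in 20. Emp1 was at 8.003 TPM in cKO replicate 3, with 6.71 TPM as the next cKO value. Hspb1 was at 50.8 TPM in cHet replicate 3, below the next cHet value of 58.7 TPM. It was at 54.3 TPM in control replicate 2, above the next control value of 49.1 TPM. Gfap was at 1092 TPM in control replicate 2, below the next control value of 1195 TPM. Without the mouse concerned, Emp1 and Hspb1 remained called for cKO against control. The call of Gfap was lost, as it was without any other control mouse and without cKO replicate 1, 2 or 3.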

How the results depend on the processing

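Over 25 alternatives, cKO against control gave 4 to 5 called of the 10 genes and cKO against cHet 3 to 5. Counts over all genes for cKO against control ran from 815 to 1513 with 1 mouse left out (815 for cKO replicate 2, 891 for cKO replicate 4, 907 for control replicate 2), beside 1374 with all mice. They ran from 0 to 1 for cHet against control (2 with no filter on low values) and from 0 to 10 between the labelled sexes, the 10 being without control replicate 1, whose Y-linked level goes against its label, and 0 or 1 without any other mouse. The 1 gene called for the difference of the cKO effect between sexes became 0 with a pseudocount of 1 and 0 without control replicate 1, alternatives added after the data were seen. With sex as a covariate and that mouse left out, also added then, the 5 genes called for cKO against control were again called, and Tardbp in cHet against control changed sign (0.022). Signs changed, with no call on either side, for Vim in cHet against control (-0.0080 with equal totals outside mitochondrially encoded genes, -0.0059 with equal totals of all genes), Pmp22 there (-0.029 and -0.027), and Tardbp there (0.0055 scaled to reference genes). In cKO against control they changed for Nes (-0.024), S100a10 (-0.012) and Nars (-0.039) with equal totals of all genes, and for Serpina3g (-0.066 there, -0.032 outside mitochondrially encoded genes, -0.0041 with median-of-ratios rescaling).

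Leaving out 1 mouse moved the log2 change from -0.059 to 0.19 for Nes and from -0.22 to 0.14 for Serpina3g in cKO against control, and from -0.22 to 0.024 for Nes and from -0.32 to 0.034 for Serpina3g in cKO against cHet. In cHet against control it ran from -0.0068 to 0.13 for Vim, -0.073 to 0.013 for Serpina3n, -0.025 to 0.033 for Tardbp and -0.0023 to 0.038 for Pmp22. Between males and females it ran from -0.14 to 0.051 for Nes, -0.043 to 0.042 for Cd44, -0.089 to 0.040 for Osmr and -0.097 to 0.0098 for Emp1. The log2 ratio of Nes to Gfap ran from -0.49 to -0.34 for cKO against cHet (exact permutation p = 0.0571 without each cHet mouse) and from 0.10 to 0.32 for cHet against control (0.0286 without control replicate 2). With 3 mice in a group fewer assignments exist. No paired analysis was possible because the labels give no replicate numbers shared by the groups. With no counts, depth limits cannot be set for low genes such as Osmr, which has no value under the filter at a mean of 5 TPM. No rescaling moved the median of all genes by 0.1 on the log2 scale; the largest shift was -0.09.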
